A study of Mus musculus with 10 samples.

Results

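The genes described here encode the peroxisome proliferator-activated receptors (Pparg, Ppara, Ppard), the retinoid X receptors they pair with (Rxra, Rxrb, Rxrg) and 3 coregulators (Ppargc1a, Ppargc1b, Nrip1). They were taken by gene symbol from a table of RNA levels per gene, in which all 9 were found among 40503 genes, and 47 transcripts of these genes were found among 84046 in a table of transcripts. RNA was sequenced from gonadal white adipose tissue, a visceral fat pad, of female C57BL/6 mice aged 12 weeks. The 5 KO mice came from a line named Med19-iAKO in the labels, received tamoxifen at 100 mg/kg on 5 days and gave tissue 14 days after it. The 5 WT mice were its controls, and the labels leave it unstated whether they were given tamoxifen. Med19 is a subunit of Mediator, the complex that carries signals from transcription factors to RNA polymerase II. The labels give neither the promoter that drives the recombinase nor the deleted part of Med19. A library is called by its group and the number in its title, such as KO 1 or WT 2.

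PPAR proteins are nuclear receptors that bind fatty acids and related ligands. They bind DNA paired with an RXR, at a direct repeat of the hexamer AGGTCA in which a single base separates the copies. PPARγ (Pparg) directs the formation of fat cells and keeps their lipid storage genes on, PPARα (Ppara) is best known for fatty acid oxidation in liver, and PPARδ (Ppard) is made in most tissues. PGC-1α (Ppargc1a) and PGC-1β (Ppargc1b) are coactivators of mitochondrial and oxidative genes. RIP140 (Nrip1) binds ligand-bound nuclear receptors and is known mainly as a corepressor of oxidative genes in fat, so the 3 are called coregulators here.

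Levels are in RPKM, reads scaled to gene length and library size, so levels of different genes can be set side by side. Recovered read totals were 15178108 to 20178083 in KO libraries and 14440547 to 16185630 in WT libraries. A change is the KO minus WT difference of log2(RPKM + 0.5) with its standard error (SE) from limma, which understates the change of low genes. Genes were tested when at least 5 libraries reached 0.5 RPKM and a call needed an adjusted p under 0.05 (Benjamini-Hochberg, over 17038 genes). Med19 RNA itself averaged 6.79 ± 0.85 RPKM in KO libraries and 6.70 ± 0.89 RPKM in WT libraries (SD, n = 5 each; 2-sided exact permutation test, p = 0.881). It therefore did not check the labels, and KO and WT below mean libraries labelled so. Of 12 markers of fat cells, 0 were listed at 0 in all libraries, and 11 were called lower in KO libraries. Their summed level was 6415 to 7293 RPKM in KO libraries and 17048 to 24927 RPKM in WT libraries. In whole tissue, fewer fat cells and less RNA per fat cell cannot be told apart.

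Of the 8 members that could be tested, Pparg and Ppara were lower in KO tissue and 0 were higher. The KO mean was 0.457 of the WT mean for Pparg and 0.428 for Ppara. The other PPAR, the 3 RXR genes, Ppargc1b and Nrip1 did not pass the test, and Ppargc1a was too low to be tested. Among all tested genes, 1.95% were called lower and 4% were called higher, and 2.15% had every KO library below every WT library, as Pparg and Ppara did. The median change of the 8 members was -0.21 and that of all tested genes was 0.09, both as log2. Without adjustment, 4 members were lower at p under 0.05 and 0 were higher. The share of all tested genes at that threshold was not counted, so this count has no background. The same holds for the unadjusted counts given below. A voom fit of the recovered reads also called 2 members lower and 0 higher.

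**Figure D1:**
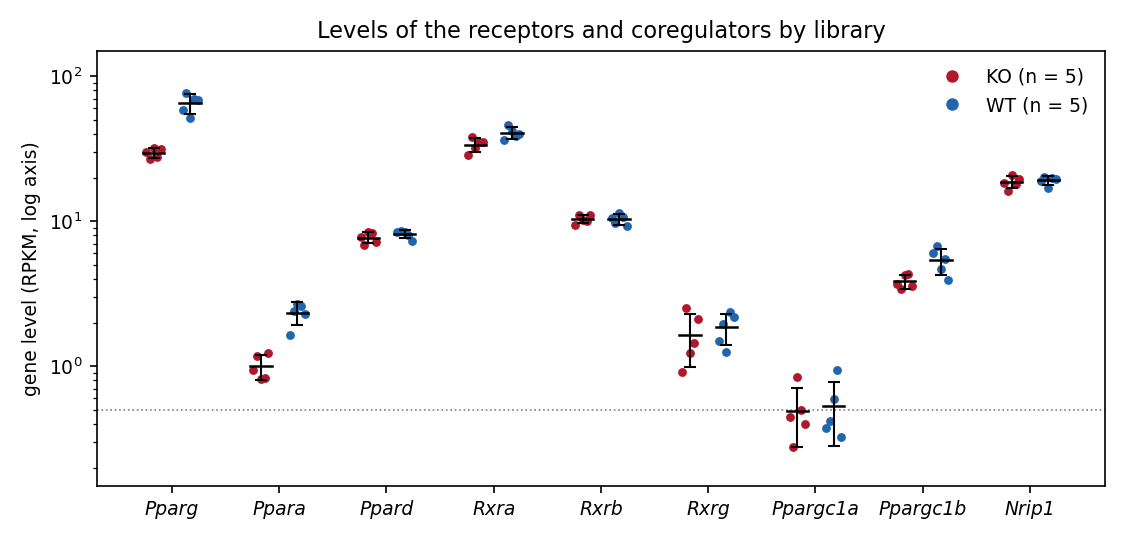
Level of each member in RPKM on a log axis, KO left of WT. Each point is a library, the bar is the mean and the whiskers are 1 SD (n = 5 each), and the dotted line marks 0.5 RPKM; the KO and WT points of Pparg and of Ppara do not overlap, and those of the other 7 genes do.

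Pparg was the most abundant member in WT tissue and came second in KO tissue. Its level was 29.8, 27.0, 32.1, 27.9 and 31.5 RPKM in KO 1, KO 4, KO 7, KO 8 and KO 17, against 58.8, 76.9, 51.4, 69.5 and 68.4 RPKM in WT 2, WT 9, WT 19, WT 86 and WT 89. Every KO library lay below every WT library, and the KO libraries varied less among themselves than the WT libraries did. The means were 29.7 ± 2.2 RPKM in KO tissue and 65.0 ± 9.96 RPKM in WT tissue (SD, n = 5 each). The log2 change was -1.11 (SE 0.106, limma adjusted p = 2.60e-04), a KO level of 0.394 to 0.546 of the WT level over its 95% interval. These values rest on 848 to 2238 reads per library.

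Pparg makes a pair of proteins from alternative first exons. PPARγ2, the longer form, is found mainly in fat cells, and PPARγ1 is made more widely. Pparg-201 (ENSMUST00000000450, 505 codons) encodes the longer form and Pparg-202 (ENSMUST00000171644, 475 codons) the shorter, so they differ by 30 codons. They are the only Pparg transcripts in the transcript table, while the gene table counts 7. The sequences just upstream of their starts are shown because the forms start at different promoters, and the form a cell makes depends on which is used. They lie on the + strand of chromosome 6 in build GRCm38.p6, from RefSeq, at chr6:115421816-115422065 for Pparg-201 and chr6:115360894-115360950 for Pparg-202. The second is cut to the 57 bases before the start that GENCODE M21 gives for Pparg-202. Another Pparg window, chr6:115362099-115362348, is not shown. It holds the start of Pparg-204, which also has 475 codons and has no level here. Both sequences shown read 5′ to 3′, with matches to the CCAAT box (CCAAT on either strand) in capitals.
Pparg-201 upstream: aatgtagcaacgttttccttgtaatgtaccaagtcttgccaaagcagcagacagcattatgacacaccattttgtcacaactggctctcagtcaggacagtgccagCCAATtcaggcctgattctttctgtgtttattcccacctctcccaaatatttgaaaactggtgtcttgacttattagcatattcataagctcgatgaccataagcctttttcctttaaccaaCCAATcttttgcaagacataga
Pparg-202 upstream: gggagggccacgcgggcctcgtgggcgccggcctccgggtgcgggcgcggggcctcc
The window before Pparg-201 held 40.8% G or C and 2 CpG, with 2 CCAAT matches, and 33.8% of 32851 RefSeq windows of 250 bases held at least 1. The full 250-base window before the RefSeq start of Pparg-202 held 82.4% G or C and 38 CpG, against medians of 52.4% and 6 over all windows. That window also held 1 AGGTCA, found in 14.0% of all windows on either strand. None of the 14 windows examined for 8 members held the repeat AGGTCANAGGTCA, which 11 of all windows held. Ppargc1b was not examined. These matches describe letters only.

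Both forms were lower in KO tissue, and the fat cell form by the larger log2 change. Pparg-201 had 16.3, 17.3, 18.3, 11.2 and 13.6 RPKM in KO 1, KO 4, KO 7, KO 8 and KO 17, against 34.0, 50.2, 32.97, 42.4 and 47.6 RPKM in WT 2, WT 9, WT 19, WT 86 and WT 89. Pparg-202 had 10.4, 9.76, 10.99, 14.2 and 14.1 RPKM in the same KO libraries and 23.0, 25.3, 20.9, 25.5 and 19.3 RPKM in the same WT libraries. The groups did not overlap for either transcript. The log2 change was -1.40 for Pparg-201 (SE 0.166, limma adjusted p = 0.00476) and -0.92 for Pparg-202 (SE 0.130, adjusted p = 0.0135), adjusted over 44475 transcripts. Of those, 0.452% were called lower and 0.0922% higher, and 1.3% had every KO library below every WT library.

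Whether the forms changed unequally was tested on the share of Pparg-201 in the sum of both. The share was 56.2 ± 8.9% in KO tissue and 64.2 ± 4.7% in WT tissue (SD, n = 5 each). In KO 1, KO 4 and KO 7 it was 61.1%, 64.0% and 62.5%, within the WT range of 59.7% to 71.2%, while KO 8 and KO 17 had 44.2% and 49.1%. The difference was within the spread of the libraries (2-sided exact permutation test, p = 0.159; adjusted p = 0.571 over 18 shares). The labels do not say how reads in exons common to both forms were divided.

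**Figure D2:**
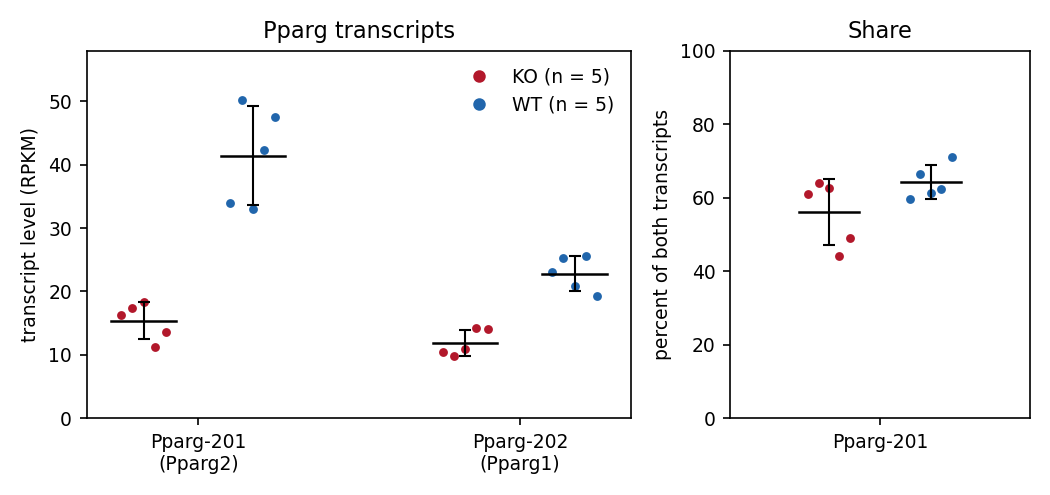
Left, level of the Pparg transcripts in RPKM; right, percent of their sum that was Pparg-201, with KO left of WT in each pair. Points are libraries, bars are means and whiskers are 1 SD (n = 5 each); both transcripts separate KO from WT, and the shares overlap.

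Ppara, at 49 to 168 reads per library, was one of the lowest members. Its level was 0.943, 1.17, 0.815, 0.833 and 1.23 RPKM in KO 1, KO 4, KO 7, KO 8 and KO 17, against 1.63, 2.42, 2.70, 2.61 and 2.30 RPKM in WT 2, WT 9, WT 19, WT 86 and WT 89. The highest KO library lay below the lowest WT library. Ppara averaged 0.999 ± 0.193 RPKM in KO tissue and 2.33 ± 0.42 RPKM in WT tissue (SD, n = 5 each), a log2 change of -0.91 (SE 0.133, limma adjusted p = 0.00417). Of 6 Ppara transcripts only Ppara-202 (468 codons) was high enough to test. It averaged 0.800 ± 0.240 RPKM in KO tissue and 1.78 ± 0.36 RPKM in WT tissue, with no overlap, and its change of -0.82 did not pass the test over all transcripts (SE 0.174, limma adjusted p = 0.0965).

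Ppard did not pass the test at 7.70 ± 0.67 RPKM in KO tissue and 8.15 ± 0.51 RPKM in WT tissue (SD, n = 5 each). The ranges overlapped, at 6.83 to 8.40 RPKM and 7.30 to 8.56 RPKM. The log2 change was -0.08 with a 95% interval of -0.24 to 0.08 (limma adjusted p = 0.535). Its 6 transcripts were all tested and 0 were called. Ppard-201, the highest of them, had 6.73 ± 1.198 RPKM in KO tissue and 6.54 ± 0.91 RPKM in WT tissue.

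The make-up of PPAR RNA therefore differed, described here without a test. The PPAR genes summed to 38.4 ± 2.5 RPKM in KO tissue and 75.5 ± 9.9 RPKM in WT tissue (SD, n = 5 each). Pparg gave 77.3 ± 1.3% of that sum in KO tissue and 85.9 ± 2.3% in WT tissue. Ppard gave 20.1 ± 1.6% in KO tissue and 10.98 ± 1.80% in WT tissue. Neither share overlapped between the groups. They are parts of the same sum, and the level of Pparg alone already separated the groups, so both shares carry its fall. The level of Ppard itself did not pass the test. Ppara gave 1.97% to 3.36% in KO libraries and 2.37% to 4.32% in WT libraries, which overlap.

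**Figure D3:**
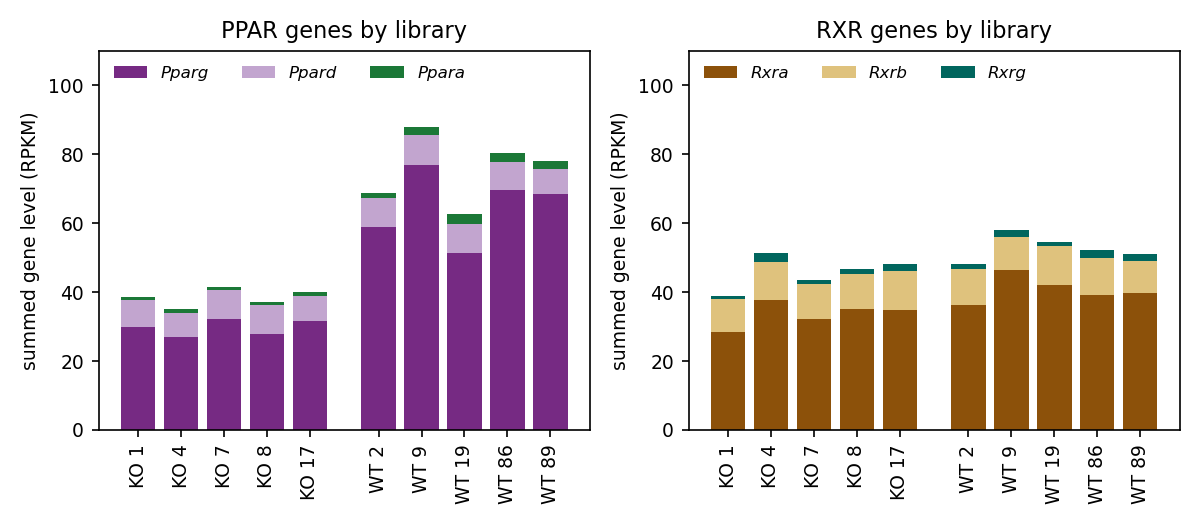
Stacked level in RPKM of the PPAR genes (left) and the RXR genes (right) in each library, KO libraries left of WT. The PPAR stacks reach 35.0 to 41.4 RPKM in KO libraries and 62.5 to 87.8 RPKM in WT libraries, and the RXR stacks 38.8 to 51.3 RPKM and 48.1 to 58.1 RPKM.

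Rxra, the main RXR of fat and liver, was the most abundant member in KO tissue by its mean and the second in WT tissue. It had 28.4, 37.8, 32.1, 35.2 and 34.9 RPKM in KO 1, KO 4, KO 7, KO 8 and KO 17, against 36.1, 46.4, 41.9, 39.0 and 39.7 RPKM in WT 2, WT 9, WT 19, WT 86 and WT 89. KO 4 lay above WT 2, so the groups overlapped. The log2 change was -0.27 (SE 0.0896, 95% interval -0.47 to -0.07), with an unadjusted p of 0.0127 and a limma adjusted p of 0.0980. The call depended on the scaling between libraries. It was called lower after median-ratio scaling (log2 change -0.36, adjusted p = 0.0390) and after quantile normalization (-0.36, adjusted p = 0.0454). Median-ratio scaling brought the median change of all genes to 0.01 from 0.09 and gave 103 higher and 417 lower calls, against 681 higher and 332 lower as deposited. Most Rxra transcript signal was on Rxra-201 (467 codons), at 22.9 ± 2.8 RPKM in KO tissue and 27.6 ± 2.6 RPKM in WT tissue (log2 change -0.27, SE 0.102, limma adjusted p = 0.441).

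Rxrb, a widely expressed RXR, had 10.4 ± 0.7 RPKM in KO tissue and 10.3 ± 0.9 RPKM in WT tissue (SD, n = 5 each). The change of 0.01 had a 95% interval of -0.15 to 0.16 (limma adjusted p = 0.961), and its sign turned after either rescaling, to -0.08 and -0.07. Rxrb had 10 transcripts, the most of any member, of which 8 were tested and 0 called. Rxrb-201 (524 codons) was the highest, at 2.95 to 8.40 RPKM in KO libraries and 5.16 to 8.63 RPKM in WT libraries.

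Rxrg, the RXR best known from muscle and brain, was low and varied most among the RXR genes relative to its mean. It had 1.65 ± 0.66 RPKM in KO tissue and 1.85 ± 0.46 RPKM in WT tissue (SD, n = 5 each), from 32 to 117 reads per library. The change of -0.16 had a wide 95% interval, -0.64 to 0.32 (limma adjusted p = 0.703). Markers of skeletal muscle summed to 2.86 to 90.2 RPKM in KO libraries and 18.1 to 43.0 RPKM in WT libraries, and their part in the spread of Rxrg was not tested. Nearly all Rxrg signal lay on Rxrg-202, which starts inside the gene and has 340 codons. Rxrg-202 gave 92.0% to 100% of the transcript sum in KO libraries and 95.9% to 100% in WT libraries. Rxrg-203 and Rxrg-204 (463 codons each) were listed at 0 in all 10 libraries, and Rxrg-201 (463 codons) at 0 in 4. The upstream sequences of both starts are shown to set the start in use beside the outer one, from RefSeq on the + strand of GRCm38.p6, at chr1:167598112-167598361 and chr1:167618015-167618264. Capitals mark a CCAAT match in the first, read on the other strand as ATTGG, and an AGGTCA in the second.
Rxrg-201 upstream: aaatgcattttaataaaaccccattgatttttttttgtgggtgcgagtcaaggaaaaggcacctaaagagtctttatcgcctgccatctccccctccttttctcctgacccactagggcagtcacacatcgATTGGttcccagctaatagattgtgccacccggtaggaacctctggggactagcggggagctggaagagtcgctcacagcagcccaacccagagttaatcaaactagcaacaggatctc
Rxrg-202 upstream: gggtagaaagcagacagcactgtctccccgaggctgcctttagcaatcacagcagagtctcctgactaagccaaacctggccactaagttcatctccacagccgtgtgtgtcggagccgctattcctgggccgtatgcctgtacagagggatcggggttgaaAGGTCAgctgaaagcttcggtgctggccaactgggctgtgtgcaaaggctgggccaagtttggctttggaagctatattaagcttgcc
The windows held 49.2% and 55.2% G or C, on either side of the 52.4% median of all windows.

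Set against each other, RXR RNA exceeded PPAR RNA in KO tissue and was below it in WT tissue. The ratio of the RXR sum to the PPAR sum was 1.01, 1.47, 1.05, 1.26 and 1.21 in KO 1, KO 4, KO 7, KO 8 and KO 17. It was 0.700, 0.661, 0.873, 0.650 and 0.656 in WT 2, WT 9, WT 19, WT 86 and WT 89. The ratio lay above 1 in every KO library and below 1 in every WT library. The PPAR sum alone already separated the groups, so the ratio carries that difference and was not tested. The RXR sum was 45.7 ± 4.8 RPKM in KO tissue and 52.8 ± 3.7 RPKM in WT tissue, and these sums overlapped between the groups. Within the RXR genes, Rxra gave 73.7 ± 1.0% of the sum in KO tissue and 76.9 ± 2.1% in WT tissue, with overlap.

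**Figure D4:**
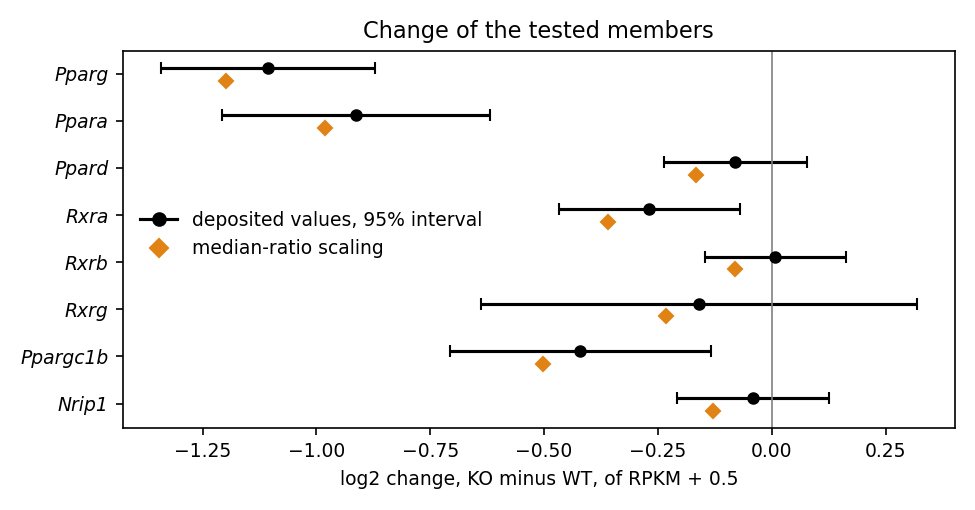
Change of the 8 tested members, KO minus WT, as the log2 difference of RPKM + 0.5. Black circles and bars are the values as deposited with 95% intervals, and orange diamonds are the changes after median-ratio scaling; the intervals of Pparg, Ppara, Rxra and Ppargc1b lie below 0, and those of the other 4 members cross it.

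Ppargc1b, the PGC-1 coactivator with the higher level here, had 3.69, 3.39, 4.26, 4.35 and 3.56 RPKM in KO 1, KO 4, KO 7, KO 8 and KO 17, against 6.06, 6.75, 4.70, 5.46 and 3.96 RPKM in WT 2, WT 9, WT 19, WT 86 and WT 89. Only WT 89 fell within the KO range. The means were 3.85 ± 0.43 RPKM in KO tissue and 5.39 ± 1.098 RPKM in WT tissue (SD, n = 5 each). The log2 change of -0.42 did not pass the test (SE 0.130, 95% interval -0.71 to -0.13, unadjusted p = 0.00822, limma adjusted p = 0.0801). Without WT 89 it did, at -0.52 (limma adjusted p = 0.0438), the only 1 of the 19 alternative fits to call it. Its 3 transcripts were tested and 0 were called.

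Ppargc1a, the coactivator induced by cold and exercise in brown fat and muscle, was the lowest member. It had 0.494 ± 0.215 RPKM in KO tissue and 0.530 ± 0.249 RPKM in WT tissue (SD, n = 5 each), from 32 to 101 reads per library. Only 4 libraries reached 0.5 RPKM, so it was not tested. In the fit with no filter on low values its log2 change was -0.05, with a 95% interval of -0.46 to 0.37 (limma adjusted p = 0.934). The highest libraries were KO 7 at 0.849 RPKM and WT 86 at 0.937 RPKM. Of 6 markers of brown and beige fat cells, which include Ppargc1a, 2 were tested and 0 called. They summed to 5.17 to 17.4 RPKM in KO libraries and 3.39 to 40.4 RPKM in WT libraries.

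Nrip1 was the third most abundant member in both groups and did not pass the test, at 18.6 ± 1.8 RPKM in KO tissue and 19.1 ± 1.3 RPKM in WT tissue (SD, n = 5 each). The log2 change was -0.04 with a 95% interval of -0.21 to 0.13 (limma adjusted p = 0.795). Its level per unit of Pparg was 0.597 to 0.650 in KO libraries and 0.261 to 0.331 in WT libraries, with no overlap. Pparg alone already separated the groups, so this ratio carries its fall and was not tested. Its transcripts ENSMUST00000054178 and ENSMUST00000121927 both have 1161 codons. The first gave 12.6 ± 4.4% of the gene's transcript sum in KO tissue and 19.1 ± 3.8% in WT tissue (SD, n = 5 each; 2-sided exact permutation test, p = 0.0397; adjusted p = 0.571). It was the only one of 18 shares under an unadjusted p of 0.05, and 0 shares passed adjustment. In all, 31 of the 47 transcripts were tested, and both that were called lower belong to Pparg. Unadjusted, 7 were lower and 0 higher at p under 0.05 in limma. The share of all tested transcripts at that threshold was not counted, and transcripts of the same gene are not independent.

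The order of the members by mean level was Rxra, Pparg, Nrip1, Rxrb, Ppard, Ppargc1b, Rxrg, Ppara and Ppargc1a in KO tissue. In KO tissue the libraries of Rxra and Pparg overlapped, as did those of Rxrg and Ppara and those of Ppara and Ppargc1a. In WT tissue the order was Pparg, Rxra, Nrip1, Rxrb, Ppard, Ppargc1b, Ppara, Rxrg and Ppargc1a, and only Ppara and Rxrg overlapped among neighbours.

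Pparg relative to fat cell markers depended on the marker. Pparg per 1000 RPKM of the 12 summed markers was 3.97 to 4.69 in KO libraries and 2.84 to 3.63 in WT libraries, with no overlap. The marker sum alone already separated the groups, so this ratio carries its fall. The same ratio of Ppard, Rxra, Rxrb, Rxrg, Ppargc1b and Nrip1 was also higher in every KO library than in every WT library. For Rxra it was 3.94 to 5.56 in KO libraries and 1.76 to 2.32 in WT libraries. That of Ppargc1a overlapped. Cfd, Fabp4 and Car3 made up 86.6% of the marker sum in KO tissue and 87.0% in WT tissue. Against each of the 12 markers on its own, the mean ratio of Pparg was higher in KO tissue for 9 and lower for 3. Every KO library lay above every WT library for 5 markers and below for 1, Fabp4, the gene of a fatty acid binding protein, and the groups overlapped for the other 6. Pparg over Fabp4 was 0.0102 to 0.0120 in KO libraries and 0.0129 to 0.0167 in WT libraries. Against Adipoq, the gene of the fat cell hormone adiponectin, Pparg stood at 0.0982 ± 0.0156 in KO tissue and 0.0912 ± 0.0076 in WT tissue (SD, n = 5 each), with overlap. Ppara per 1000 RPKM of the markers was 0.112 to 0.183 in KO libraries and 0.0958 to 0.149 in WT libraries, also with overlap. These ratios are descriptions, and 7 of the 12 markers are also in the list of PPARγ targets described next.

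Among 35 tested PPARγ targets of fat cells, 20 were lower and 5 higher in KO tissue, with a median log2 change of -0.66. Among all tested genes, 1.95% were lower and 4% higher. Median-ratio scaling left 20 lower and 2 higher, and 17 to 19 were lower without 1 library. The largest falls were in Pck1, which feeds glycerol synthesis for triglyceride, Cidec, which enlarges lipid droplets, and Plin4, a lipid droplet coat protein. Pck1 averaged 24.1 ± 5.2 RPKM in KO tissue and 218 ± 65 RPKM in WT tissue (log2 change -3.12). Cidec averaged 149 ± 29 RPKM in KO tissue and 635 ± 138 RPKM in WT tissue (log2 change -2.08), and Plin4 132 ± 22 RPKM in KO tissue and 379 ± 49 RPKM in WT tissue (log2 change -1.52; SD, n = 5 each). All 3 passed limma's test in each of the 19 alternative fits. Of the 28 targets that are not among the fat cell markers, 13 were lower and 5 higher, with a median of -0.63. The 5 higher ones, named after their values were seen, were Angptl4, Retsat, Hilpda, Olr1 and Gk. Angptl4, an inhibitor of lipoprotein lipase (log2 change 0.56), and Retsat, a retinol saturase (0.42), kept their calls without any 1 library. Hilpda, Olr1 and Gk lost theirs in 9, 9 and 7 of those 10 fits, which called 2 to 4 targets higher.

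Of 24 tested targets of PPARα in fatty acid oxidation, 2 were lower and 4 higher, with a median log2 change of 0.09, close to that of all genes. After either rescaling 2 were lower and 1 was higher, and the median was 0.0038 after median-ratio scaling. Cpt1a, the gate for fatty acids into mitochondria, was higher, at 74.2 ± 2.0 RPKM in KO tissue and 55.1 ± 2.2 RPKM in WT tissue (SD, n = 5 each; log2 change 0.43, SE 0.0514, limma adjusted p = 0.00124). Pex11a, a protein of peroxisome division, was lower, with a log2 change of -0.42 (limma adjusted p = 0.0416). Pex11a kept its call only when KO 17 or WT 2 was the library left out (0.0519 to 0.0976 in the other fits). The other 3 higher genes, Acadl and Hadha of mitochondrial oxidation and Slc25a20, the carnitine carrier, were named after their values were seen, and lost their calls in 9, 8 and 10 of the 10 fits without 1 library. With 1 library left out, 1 to 2 of these targets were higher and 0 to 3 lower.

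Among 19 PGC-1 partners and targets, 1 was lower and 0 were higher, with 2 and 1 at an unadjusted p under 0.05 and the same calls by voom. The lower one was Mfn2, which fuses mitochondria, at 28.4 ± 1.7 RPKM in KO tissue and 33.8 ± 1.7 RPKM in WT tissue (SD, n = 5 each; log2 change -0.25, limma adjusted p = 0.0393). That call held in only 1 of the 10 fits without a library, the one without KO 4. Cox8b, named after its value was seen, was called higher only when WT 86 was left out (log2 change 0.97, limma adjusted p = 0.0246). Atp5b of ATP synthase and Cox4i1 of cytochrome c oxidase, the most abundant of the list, had changes of -0.03 and -0.17 and did not pass.

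The other partners and coregulators gave few calls. Of 11 tested receptors that pair with RXR, 0 were called in limma or by voom, and 0 lower and 2 higher had an unadjusted p under 0.05. The liver X receptors Nr1h3 and Nr1h2, the most abundant of them, had 29.8 ± 3.3 and 27.2 ± 2.3 RPKM in KO tissue and 27.9 ± 1.9 and 24.1 ± 1.6 RPKM in WT tissue (SD, n = 5 each). Of 20 coactivators outside the members, Lpin1 was lower and 0 were higher. Lpin1, which is also a phosphatase of triglyceride synthesis, averaged 25.4 ± 4.2 RPKM in KO tissue and 56.3 ± 18.04 RPKM in WT tissue (SD, n = 5 each; log2 change -1.09, limma adjusted p = 0.0147). The acetyltransferase Ncoa3 and the chromatin remodeller Smarca4, which with Lpin1 had the highest means over all 10 libraries, had changes of 0.16 and 0.17 and did not pass. Without adjustment, 5 of these coactivators were higher, and voom called 0. Of 15 corepressors, Tbl1xr1, a subunit of the NCoR complex, was higher (log2 change 0.28, limma adjusted p = 0.0230) and 0 were lower. Voom also called 1 higher and 0 lower, and 2 were higher and 0 lower at an unadjusted p under 0.05. Tbl1xr1 lost its call after either rescaling and when KO 1, KO 8, KO 17 or WT 86 was left out (limma adjusted p 0.0509 to 0.0594 without a library). Ctbp1 and Ncor1, the most abundant corepressors, had changes of 0.03 and 0.02, which turned negative after either rescaling.

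Of 17 tested regulators of Pparg transcription, 2 were lower and 1 higher. Voom called 3 lower and 1 higher, and either rescaling gave 3 lower and 0 higher. Cebpa, the partner of PPARγ in keeping fat cells differentiated, averaged 111.8 ± 26.0 RPKM in KO tissue and 187 ± 25.2 RPKM in WT tissue (SD, n = 5 each; log2 change -0.77, limma adjusted p = 0.0300). Srebf1, a regulator of lipid synthesis, averaged 40.7 ± 4.3 RPKM in KO tissue and 72.9 ± 22.8 RPKM in WT tissue (log2 change -0.79, adjusted p = 0.0303). Stat5a, a transcription factor of growth hormone and prolactin signalling, was the higher one (log2 change 0.34, adjusted p = 0.0321). Each of these calls was lost in some fits without 1 library. Cebpa kept it only when KO 4, KO 7, KO 8 or WT 19 was the library left out (limma adjusted p 0.0519 to 0.0760 in the other fits). Srebf1 kept it when KO 4, WT 2, WT 9 or WT 86 was left out (0.0539 to 0.0788 in the others). Stat5a kept it when KO 4, KO 17 or WT 86 was left out (0.0516 to 0.0821 in the others) and lost it after either rescaling. Dlk1, a brake on fat cell formation, was listed at 0 in all libraries.

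**Figure D5:**
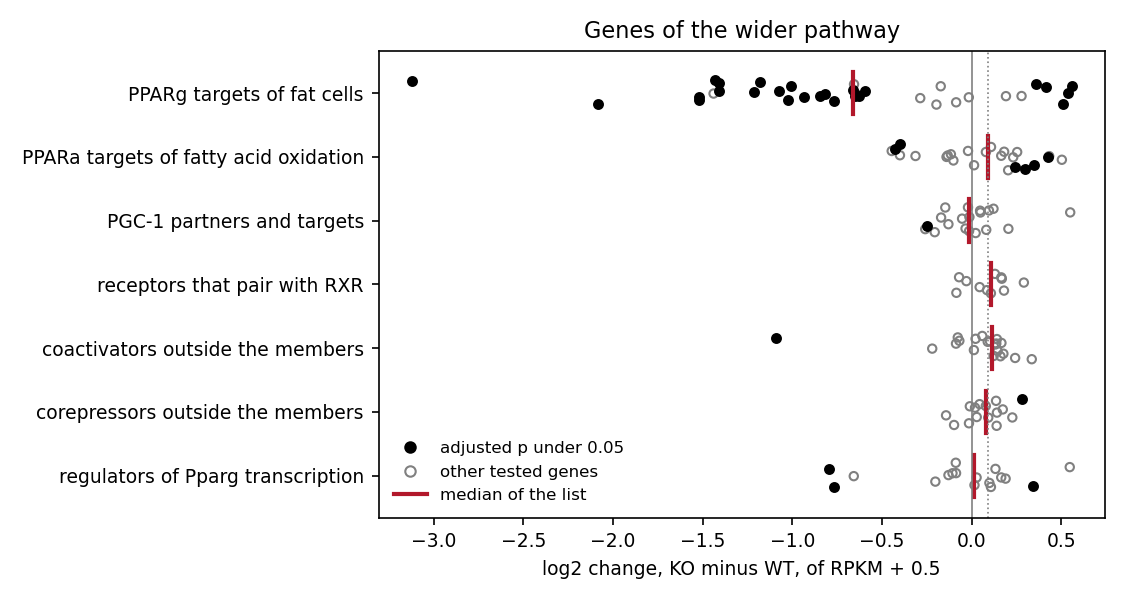
Log2 change of RPKM + 0.5, KO minus WT, for each tested gene of 7 lists around the receptors. Filled points passed the test, open points did not, red bars are list medians, and the dotted line is the median of all tested genes (0.09); PPARγ targets have a median of -0.66, and the other 6 medians lie between -0.01 and 0.11.

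Genes with the most similar profile were sought by the root mean square (RMS) difference of centred log2 levels over the 10 libraries, among 11322 genes with a mean of at least 2 RPKM. For Pparg these were Trarg1 (0.108), Ghr (0.113) and Smoc1 (0.118), against a median of 0.648 over all genes compared. Trarg1 acts in traffic of the glucose transporter of fat and muscle, Ghr is the growth hormone receptor, and Smoc1 is a secreted matrix protein. For Ppara they were Mknk2 (0.129), a kinase of the translation factor eIF4E, Slc25a10 (0.131), a mitochondrial dicarboxylate carrier, and Slc1a5 (0.133), a glutamine transporter, against a median of 0.559. The distance includes the difference between the groups, so genes with a change of like size come first.

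Markers of other cell types are given beside these results. Neutrophil markers summed to 428 to 800.1 RPKM in KO libraries and 172 to 355 RPKM in WT libraries, and 3 of 6 were called higher in limma (1 to 4 without 1 library). Macrophage markers summed to 4649 to 5833 RPKM in KO libraries and 3786 to 4993 RPKM in WT libraries. Of the 10, limma called 1 higher (0 to 3 without 1 library), voom called 4 higher, and 6 were higher at an unadjusted p under 0.05, with a median log2 change of 0.35 over the list. Of 10 fibroblast and progenitor markers 2 were called higher in limma (1 to 2 without 1 library) and 3 by voom. After median-ratio scaling, 1 neutrophil, 0 macrophage and 1 fibroblast and progenitor marker were called higher. After quantile normalization these counts were 2, 0 and 2. Of 8 endothelial markers only Kdr, named after its value was seen, was lower (log2 change -0.55, limma adjusted p = 0.0375), and it kept its call only when KO 8 was the library left out (0.0574 to 0.0867 in the other fits). Among markers of mesothelium, skeletal muscle, and B and T cells, 0 were called in limma, with 2 mesothelial ones higher at an unadjusted p under 0.05 and 1 called higher by voom. No marker of these lists was at 0 in all libraries, and the part of these cells in the levels of the receptors was not tested.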

How the data were processed

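RNA from gonadal white adipose tissue was compared between 5 KO and 5 WT libraries. The authors deposited RPKM values in a gene table and a transcript table. Per the submitters' processing notes, bcl2fastq, STAR 2.0.4b1, Subread and featureCounts 1.4.52 were used. The genome build, the annotation release and the way reads were divided among transcripts are not named there or in the labels. The transcript table is described as RPKM from its name alone.

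Repeated rows were identical and were counted once. Within a library, RPKM were whole multiples of the value of 1 read. Whole reads, within 0.001, were recovered for 99.996% of 25122 genes above 0 in at least 3 libraries, and the library size behind the RPKM was 1.00128 to 1.00148 times their sum. The recovered reads gave depth and a voom fit only.

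Log2(RPKM + 0.5) went into a limma 3.58.1 fit under R 4.3.3 (eBayes with trend and robust, statmod 1.5.0), 2-sided, over 17038 genes and 44475 transcripts with at least 0.5 RPKM in at least 5 libraries. Adjusted p-values are Benjamini-Hochberg over all of them. Transcript shares and Med19 were compared by 2-sided exact permutation tests over 252 assignments, whose smallest p is 0.00794. Transcript names and codons came from GENCODE M21 by identifier, and promoter windows from RefSeq. Member windows on chromosome 18, which holds Ppargc1b, were left out, so 14 windows of 8 members were examined. In GENCODE M21, no exon of another gene overlapped a member's exons.

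The members and the gene lists were chosen with earlier results of these data known. The genes named are all members and Med19, the 3 called genes with the largest change of each list, the 2 most abundant where fewer than 2 were called, and the 3 nearest profiles of each called member. One gene that this rule names is not reported here. The labels give no batch, and p-values measure the spread between these 10 libraries. The alternatives were 2 other pseudocounts, 2 other filters, 2 rescalings, plain eBayes, array weights, voom, and each library left out.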

Additional observations from a re-analysis of the deposited data

Results flagged for a closer look

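Among 64 groups of 5 libraries examined, 3 held a library far from the others, which is close to the 1 in 20 that chance gives. In KO 8, Rxrb-201 made up 14.0% of the Rxrb transcript sum, below the other KO libraries at 36.0% to 43.6%. In the same library Rxrb-202 made up 30.4%, above the other KO libraries at 0% to 5.73%, while WT 19 had 30.3%. Both are shares of the same sum in the same library, so they are not separate observations. The Rxrb gene level of KO 8, 10.1 RPKM, lay within the other KO libraries. The ratio of RXR to PPAR RNA was 0.873 in WT 19, above the other WT libraries at 0.650 to 0.700 and below every KO library. WT 19 had the lowest Pparg level of its group, 51.4 RPKM.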

How the results depend on the processing

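Pparg and Ppara stayed lower at a limma adjusted p under 0.05 in all 19 alternative fits, with log2 changes of -1.20 to -1.04 and -1.21 to -0.73. Both Pparg transcripts did so in 18, and Pparg-202 came closest to losing the call (adjusted p up to 0.04998). Rxra was called lower after both rescalings, which made 3 members lower. Signs turned for genes and transcripts with changes near 0. After median-ratio scaling, and after quantile normalization, the log2 changes were -0.080 and -0.072 for Rxrb, -0.0037 and -0.0058 for Nr1h3, -0.071 and -0.074 for Ncor1, -0.062 and -0.054 for Ctbp1, and -0.0096 and -0.015 for Ppard-201. Quantile normalization gave -0.015 for the Nrip1 transcript ENSMUST00000121927, and median-ratio scaling gave a KO minus WT difference of -0.312 RPKM for Med19 (exact permutation p = 0.603). Without 1 library, the changes ran from -0.029 to 0.042 for Rxrb, -0.082 to 0.0086 for Nrip1, -0.067 to 0.0071 for Atp5b, -0.013 to 0.064 for Ncor1, -0.020 to 0.074 for Ctbp1, -0.023 to 0.142 for Ppard-201, -0.156 to 0.194 for Rxrb-201 and -0.011 to 0.152 for ENSMUST00000121927. The KO minus WT difference ran from -7.26 to 0.396 percentage points for the share of Rxrb-201 and from -0.205 to 0.398 RPKM for Med19. Over the 7 lists, the 11 higher calls became 5 with no filter, 3 after median-ratio scaling, 3 after quantile normalization, 7 with plain eBayes and 3 to 7 without 1 library, and the cause was not tested. Voom was not run on transcripts, which have no recovered reads. No paired analysis was possible because the groups share no animal number. Depth limits Ppara, Rxrg and Ppargc1a, each under 170 reads in every library.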
